A study of Mus musculus with 48 samples.

Results

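Maternal separation (MS) was compared with control rearing (C), which was standard facility rearing in the study's methods, over all Tph2 genotypes together. The RNA came from the amygdala of all 48 mice of the series, of which 24 had been reared with MS and 24 under C. The genotype entered the comparison as a covariate, so that the difference described is the average of the rearing effect over Tph2+/+, Tph2+/- and Tph2-/- mice. Of the 48440 genes in the deposited table, 5643 had a mean of at least 10 counts over the 48 mice and were tested, after the entries for uncounted pairs, Lars2 and Gm42418 had been dropped. The mice were C57BL/6 males (C57BL/6N in the study's methods) aged 4 months, with 8 mice in each of the 6 groups of genotype and rearing. In the MS groups, pups were taken from the dam for 3 h per day from postnatal day 2 to postnatal day 15, while the C groups stayed with theirs. The Tph2 alleles were constitutive, so that Tph2-/- mice had lacked the gene in every cell since conception, and all mice came from Tph2+/- parents. The mice themselves had gone through behavioral tests as adults. Rearing had been assigned to whole litters, and the labels used here do not give the litter of a mouse, so the tests treat littermates as independent animals.

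Separation of rodent pups from the dam is a standard model of early-life adversity, in which handling of stress and anxiety-like behavior in adulthood are studied. The amygdala is a limbic region of the forebrain that links sensory input to fear and anxiety and receives dense serotonergic fibers from the raphe nuclei of the brainstem. Serotonin (5-HT) is made in those raphe neurons by the enzyme that Tph2 encodes, and the neurons of the amygdala itself do not make it. Tph2 had 2 counts in all 48 libraries together and 0 counts in 46 of them, so the genotype could not be checked from the gene itself.

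A mouse contributed between 402393 and 819464 counts on the tested genes, with a median of 644856.5. Levels are given as CPM, the counts on a gene scaled to the library's total over the tested genes after TMM normalization. By the library totals before TMM normalization, a floor of 3 counts made between 3.66 and 7.46 CPM, which covers counting error only. After TMM normalization the floor lay above this range in replicate 1 of Tph2+/+ C, where 2 counts already made 6.04 CPM. The share of read pairs that fell on no gene had a median of 97.5% in C and 97.5% in MS, with lowest values of 75.9% in C and 95.1% in MS. In the annotation, 63.6% of the tested genes but 11.5% of the genes below the count limit had exons that overlap exons of another gene on the opposite strand. That share rose from 47.6% in the class of tested genes with the fewest counts to 92.8% in the class with the most. Library preparation preserved strand, but the strand setting of the counting is not given in the sources used here. Actb had a mean of 7.10 counts, Snap25 8.5 and Camk2a 4.75, although neurons and other brain cells use these genes heavily. Gapdh, looked up with them, had a mean of 58.5 counts. Only 13 of 100 listed marker genes of brain cell types and regions reached the limit, with 0 of the 10 endothelial markers. The label amygdala could therefore not be checked against marker genes. For genes described below the opposite-strand partner is named where exons overlap, because the reads of a gene and its partner cannot be told apart here.

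Several leading genes have very short or repeated sequences, which are shown because they decide what a count on them can stand for. Mir6236 is annotated as a microRNA gene of 123 bases (chr9:110281287-110281409 of GRCm38, plus strand), and its mature microRNA lies at chr9:110281353-110281371. Gm24270 (chr9:56223715-56223771, minus strand) and Gm24187 (chr13:9834469-9834525, minus strand) are annotated as microRNA genes of 57 bases each that differ by 1 base, written G11A with positions counted from the 5′ end of the gene and Gm24270 given first. Gm25732 is a further annotated microRNA gene, of 60 bases, at chr4:139338206-139338265 on the plus strand. The mature sequence is from RefSeq (GRCm38.p6) with its seed, bases 2 to 8, in capitals, and the genes are from GENCODE M21 (GRCm38) with the base that differs between Gm24270 and Gm24187 in capitals:
mmu-miR-6236: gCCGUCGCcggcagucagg
Gm24270: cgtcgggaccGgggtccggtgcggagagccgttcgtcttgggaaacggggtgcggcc
Gm24187: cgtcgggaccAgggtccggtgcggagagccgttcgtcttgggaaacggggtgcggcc
Gm25732: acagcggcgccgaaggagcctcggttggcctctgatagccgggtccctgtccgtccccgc
These genes were counted from fragments of total RNA, so their values are not levels of mature microRNAs. Alignments that were not unique had an entry of their own among the uncounted pairs. Whether reads of the near-identical genes were placed on the wrong copy was not tested.

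A gene was called a differentially expressed gene (DEG) at a nominal p below 0.01 in edgeR's quasi-likelihood F test and an absolute lg2FC (the log2 ratio of MS to C) above 0.2. MS gave 45 DEGs, which is 0.797% of the genes tested. Of these, 37 were lower after MS (0.656%) and 8 were higher (0.142%). The lower DEGs made up 82.2% of the calls, against 52.7% with all genes that had at least 1 count, 69.2% with the count filter of edgeR, 70.3% with DESeq2 and 72.3% with Lars2 and Gm42418 kept. Adjusted over all genes tested (edgeR, Benjamini-Hochberg), 2 genes (0.0354%) had a p below 0.05, and both were lower after MS. The smallest adjusted p among the other lower DEGs was 0.0901 and all 8 higher DEGs had an adjusted p of 0.902 by the same method. A nominal p below 0.05 was reached by 298 genes, or 5.28%.

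The differences were small for most genes. The median absolute lg2FC was 0.065, the median SE of the lg2FC was 0.098, and the lg2FC of the middle 98% of genes lay between -0.30 and 0.28. For 5502 genes, 97.5% of those tested, the 95% interval of the difference lay within a 1.5-fold change in either direction.

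**Figure D1:**
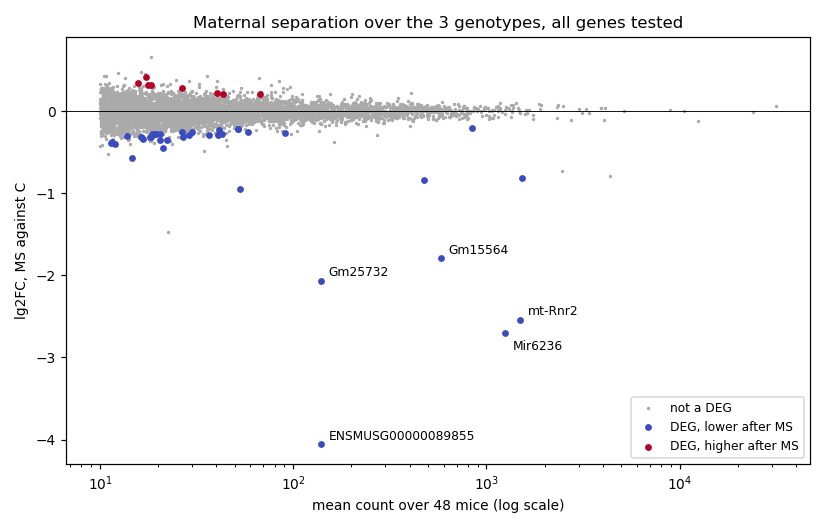
The lg2FC of MS against C over the genotypes (y axis) is plotted against the mean count over 48 mice (x axis, log scale) for the 5643 genes tested, with the 37 lower DEGs in blue, the 8 higher DEGs in red and all other genes in grey. The 5 named genes lie below all others, and the higher DEGs stay between 0.21 and 0.42.

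The gene with the smallest p was ENSMUSG00000089855, an identifier without a symbol in the annotation used here. It had between 8.18 and 10008 CPM in C, with a median of 21.3, and between 9.50 and 394 CPM in MS, with a median of 20.7. The medians of the rearing groups were thus nearly equal, and of the 24 MS mice 12 lay below the C median and 12 above it. The group medians were 16.4 and 25.6 CPM in C and MS of Tph2+/+ mice, 18.6 and 19.2 in Tph2+/- mice and 29.6 and 21.4 in Tph2-/- mice. The fitted lg2FC was -4.06 ± 0.81 (SE; 95% interval -5.67 to -2.44; n = 24 per rearing group; nominal p = 5.8e-06; adjusted p = 0.0327, edgeR).

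mt-Rnr2 (chrM:1094-2675, plus strand), the 16S ribosomal RNA of the mitochondrion, was the other gene with an adjusted p below 0.05. Its levels ran from 139 to 54352 CPM in C, with a median of 1029, and from 171 to 3671 CPM in MS, with a median of 719.7. The group medians were 1029 CPM in C and 792 in MS of Tph2+/+ mice, 1066 and 666 in Tph2+/- mice and 1142 and 665 in Tph2-/- mice. The MS median was lower in each genotype, and 17 of 24 MS mice lay below the C median, but the ranges overlapped widely. The lg2FC was -2.54 ± 0.54 (95% interval -3.62 to -1.47; n = 24 per rearing group; nominal p = 1.7e-05; adjusted p = 0.0472, edgeR).

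Mir6236 ranged from 267 to 56740 CPM in C (median 507) and from 214 to 6102 CPM in MS (median 434), with a lg2FC of -2.71 ± 0.61 (95% interval -3.93 to -1.48). Its group medians were 373 and 438 CPM in C and MS of Tph2+/+ mice, 475 and 418 in Tph2+/- mice and 585 and 442 in Tph2-/- mice. Gm15564, an antisense transcript on the minus strand of chromosome 16 (35966752 to 35983230), had a median of 419 CPM in C (305 to 20280) and of 416 CPM in MS (223 to 1677), with a lg2FC of -1.79 ± 0.45 (95% interval -2.69 to -0.89). In this gene too, the medians of the rearing groups were close together while the highest C libraries lay far above. Its group medians were 352 and 453 CPM in C and MS of Tph2+/+ mice, 460 and 397 in Tph2+/- mice and 447 and 442 in Tph2-/- mice. Gm25732, whose sequence is printed above, had a median of 85.2 CPM in C (37.5 to 5291) and of 81.1 CPM in MS (40.9 to 663), with a lg2FC of -2.06 ± 0.53 (95% interval -3.13 to -1.002).

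The high values of these 5 genes came from the same 4 libraries, in which Gm42418, the dropped gene that lies over a ribosomal RNA unit, had more than 500000 counts. They were replicate 1 of Tph2+/+ C, replicate 2 of Tph2+/+ MS, replicate 2 of Tph2+/- C and replicate 1 of Tph2-/- C, so that 3 of them were controls and 1 was an MS library. In every other library Gm42418 had at most 72131 counts. ENSMUSG00000089855 had 10008, 394, 5123 and 858 CPM in these libraries, in that order, and at most 62.9 CPM in the other 21 C and 34.8 CPM in the other 23 MS libraries. The shares of pairs on no gene were 75.9%, 95.1%, 77.9% and 93.8% in the same order.

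Without these 4 libraries the lg2FC was -0.12 ± 0.19 for ENSMUSG00000089855, -0.47 ± 0.21 for mt-Rnr2, -0.05 ± 0.13 for Mir6236, 0.03 ± 0.10 for Gm15564 and -0.03 ± 0.12 for Gm25732, so that none of the 5 passed the DEG limits. The number of DEGs was then 35, of which 26 were lower and 9 higher and 21 were among the 45, and 0 genes had an adjusted p below 0.05 (edgeR; 285 had a nominal p below 0.05). The direction was kept by 43 of the 45 DEGs. Gm24270 and Gm24187 belonged to the same set, with a lg2FC of -0.84 and -0.82 in all mice and of -0.02 and 0.08 without the 4 libraries. Gm24187 was named for its sequence after its values had been seen.

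**Figure D2:**
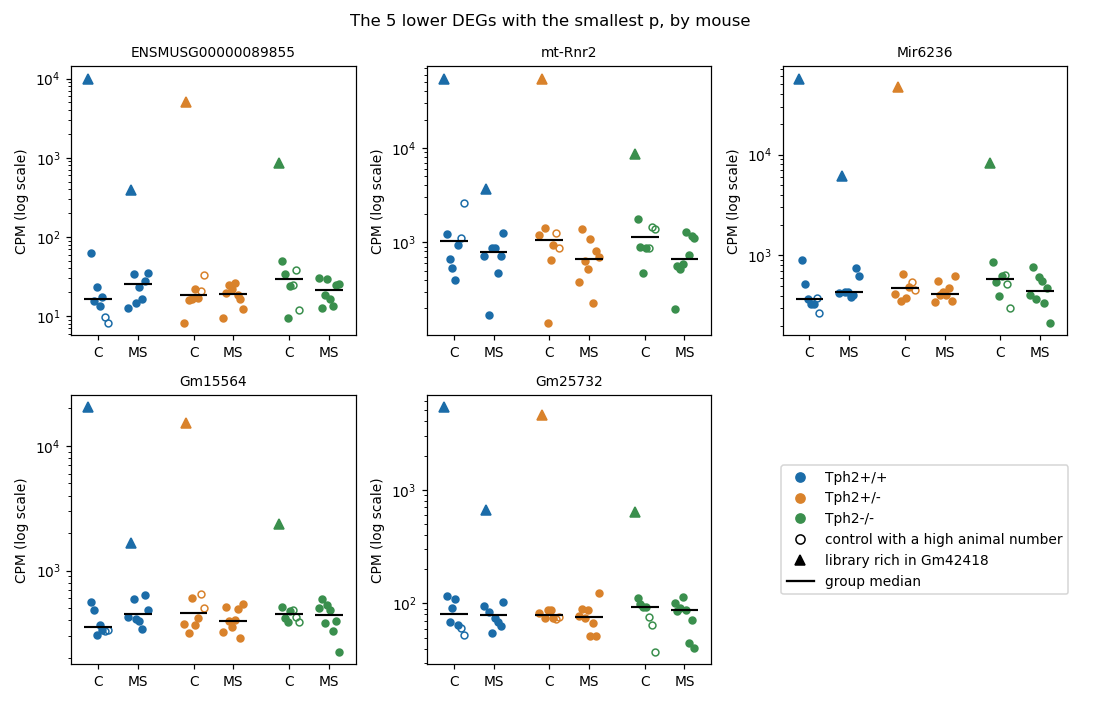
CPM on a log scale in each mouse for the 5 lower DEGs with the smallest p, by rearing within genotype (8 mice per group), with group medians as lines, the 4 libraries rich in Gm42418 as triangles and the 7 controls with the highest animal numbers as open circles. The triangles stand above all other mice in each panel, while the medians of C and MS lie far below them, close together in most panels and lower after MS for mt-Rnr2.

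The other named lower DEGs differed less, and their groups overlapped. Gm18791, a processed pseudogene on chromosome 2 (39153964 to 39154689), had a median of 38.8 CPM in C (24.5 to 55.8) and of 26.8 CPM in MS (18.02 to 48.7). The lg2FC was -0.35 ± 0.10 (95% interval -0.56 to -0.15; n = 24 per rearing group; nominal p = 0.00127), and 20 of 24 MS mice lay below the C median. Gm37710, an unconfirmed transcript of the TEC class on chromosome 9 whose exons overlap those of Dyx1c1 for 738 bases on the opposite strand, had a median of 46.1 CPM in C (25.8 to 75.5) and 37.7 CPM in MS (22.2 to 50.3). Its lg2FC was -0.32 ± 0.10 (95% interval -0.51 to -0.13), and the value was below the C median in 22 of 24 MS mice.

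Vsig2 (chr9:37539255-37544205, plus strand) encodes a membrane protein of the immunoglobulin superfamily and has no exon opposite to another gene. It had a median of 99.6 CPM in C (63.6 to 128) and of 85.2 CPM in MS (53.0 to 105), and 23 of 24 MS mice lay below the C median. The lg2FC was -0.25 ± 0.08 (95% interval -0.40 to -0.10; n = 24 per rearing group; nominal p = 0.00163). It was -0.45 in Tph2+/+, -0.12 in Tph2+/- and -0.18 in Tph2-/- mice, and the test of a difference between these values gave an adjusted p = 0.936 (edgeR interaction).

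Gm37850, an antisense transcript on chromosome 9 (107762808 to 107763587), had a median of 84.6 CPM in C (61.03 to 102) and of 74.1 CPM in MS (49.6 to 93.2), with a lg2FC of -0.22 ± 0.07 (95% interval -0.36 to -0.09). 1700030K09Rik, a protein-coding gene on chromosome 8 whose exons overlap those of Cherp for 513 bases, had medians of 65.2 and 59.0 CPM in C and MS and a lg2FC of -0.24 ± 0.07 (95% interval -0.38 to -0.09). In both genes at least 20 of 24 MS mice lay below the C median.

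The other 23 DEGs were all lower after MS, with a lg2FC between -0.95 and -0.22. Protein-coding genes among them were the small acidic nuclear protein Ptms (-0.58 ± 0.19), the ribosome assembly factor Krr1 (-0.29 ± 0.10, opposite to Glipr1), the unconventional myosin Myo5c (-0.22 ± 0.08), the cAMP phosphodiesterase Pde7a (-0.32 ± 0.11, opposite to Gm16093) and the orphan receptor Gpr85 (-0.26 ± 0.09), which is expressed mainly in the brain. The calpain family member Capn6 (-0.37 ± 0.13), the galactosyltransferase B4galt3 (-0.29 ± 0.10, opposite to Ppox) and the BRCA1-associated scaffold Abraxas1 (-0.29 ± 0.10) were of like size. These genes were picked after their values were seen, to show the range. By annotation the 37 lower DEGs (0.656% of all genes tested) held 18 protein-coding genes of 3081 tested, 5 antisense genes of 1180, 4 microRNA genes of 68, 4 processed pseudogenes of 334 and both mitochondrial ribosomal RNAs. Without the 4 libraries rich in Gm42418, neither mt-Rnr2 nor any of these 4 microRNA genes passed the DEG limits.

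All 8 higher DEGs had exons opposite to another gene, against 63.6% of the genes tested and 13 of the 37 lower DEGs. Gm29477, an antisense transcript on chromosome 11 (95375525 to 95384507) opposite to Fam117a, had a median of 20.9 CPM in C (11.1 to 36.5) and of 27.0 CPM in MS (13.3 to 40.4). The group medians were 19.1 and 25.7 CPM in C and MS of Tph2+/+ mice, 21.9 and 27.9 in Tph2+/- mice and 19.7 and 27.0 in Tph2-/- mice. The medians of MS were higher in each genotype, with a lg2FC of 0.36, 0.27 and 0.40 in the 3 genotypes. Over all mice the lg2FC was 0.34 ± 0.11 (95% interval 0.12 to 0.57; n = 24 per rearing group; nominal p = 0.00308), and 20 of 24 MS mice lay above the C median.

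Gm2061, a long intergenic transcript on chromosome 1 opposite to the manganese exporter gene Slc30a10, had a median of 37.6 CPM in C (24.1 to 57.5) and of 45.1 CPM in MS (27.2 to 64.1). Its group medians were 40.3 and 49.1 CPM in C and MS of Tph2+/+ mice, 41.6 and 44.8 in Tph2+/- mice and 28.8 and 39.4 in Tph2-/- mice, and the lg2FC was 0.28 ± 0.09 (95% interval 0.09 to 0.46). The groups overlapped, and 17 of 24 MS mice lay above the C median. Cideb, whose protein belongs to a family that acts on lipid droplets and lipoproteins, overlaps the ribosome assembly gene Nop9 for 1136 bases. Cideb had a median of 23.95 CPM in C (8.61 to 37.2) and of 28.9 CPM in MS (18.5 to 43.6), with a lg2FC of 0.32 ± 0.11 (95% interval 0.09 to 0.55). Its group medians were 23.1 and 27.4 CPM in C and MS of Tph2+/+ mice, 24.9 and 31.9 in Tph2+/- mice and 25 and 29.8 in Tph2-/- mice, and 21 of 24 MS mice lay above the C median.

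1700120B22Rik, which shares a promoter region and 267 exonic bases with the ubiquitin ligase gene Herc4, had a median of 94.8 CPM in C (58.0 to 119) and of 109 CPM in MS (71.6 to 146). Its lg2FC over all mice was 0.21 ± 0.07 (95% interval 0.06 to 0.35), but the genotypes differed before adjustment (n = 48; interaction p = 0.00641, adjusted p = 0.401, edgeR). The group medians were 83.8 and 118 CPM in C and MS of Tph2+/+ mice, 101.4 and 97.0 in Tph2+/- mice and 89.2 and 113 in Tph2-/- mice. It was the only one of the 8 higher DEGs whose lg2FC had the opposite sign in a genotype, with -0.09 in Tph2+/- mice.

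The remaining higher DEGs were protein-coding. Il4i1, a secreted amino acid oxidase opposite to Tbc1d17 and Atf5, had medians of 24.7 CPM in C and 30.9 CPM in MS (lg2FC 0.32 ± 0.12). Sco2, a copper chaperone for the assembly of cytochrome c oxidase that lies opposite to the condensin gene Ncaph2, had medians of 59.4 and 66.9 CPM (lg2FC 0.21 ± 0.08). Tmem63b, a mechanosensitive ion channel opposite to Gm16172 and Mrpl14, had medians of 55.6 and 65.1 CPM (lg2FC 0.22 ± 0.08), and 21 of 24 MS mice lay above the C median. Tpbgl, opposite to Gm10605, had medians of 23.1 and 28.2 CPM (lg2FC 0.42 ± 0.15) and a lg2FC of 0.80 in Tph2+/+ but 0.08 in Tph2-/- mice (adjusted p = 0.926 for the interaction, edgeR).

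**Figure D3:**
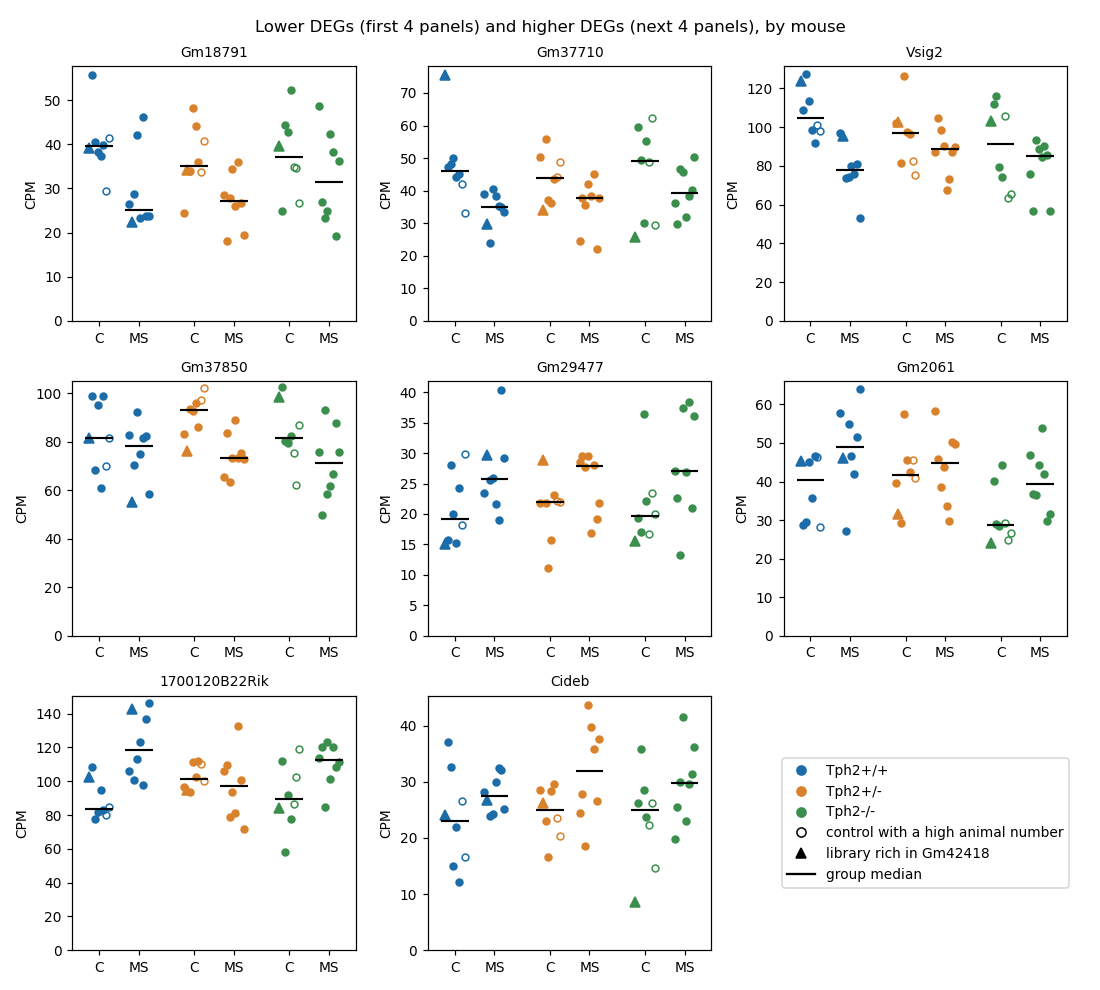
CPM from 0 in each mouse for 4 lower DEGs (Gm18791, Gm37710, Vsig2 and Gm37850) and 4 higher DEGs (Gm29477, Gm2061, 1700120B22Rik and Cideb), by rearing within genotype (8 mice per group), with group medians as lines, the 4 libraries rich in Gm42418 as triangles and the 7 controls with the highest animal numbers as open circles. C and MS overlap in every panel, and the medians of 1700120B22Rik differ in direction between Tph2+/- and the other genotypes.

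The sign of the difference was the same in all 3 genotypes for 41 of the 45 DEGs, a share of 91.1% against 25.6% of all genes tested. A gene called in the sum of the genotypes is likely to share its sign among them, so this share describes the calls and is no test. Among the lower DEGs it was 34 of 37 and among the higher DEGs 7 of 8.

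**Figure D4:**
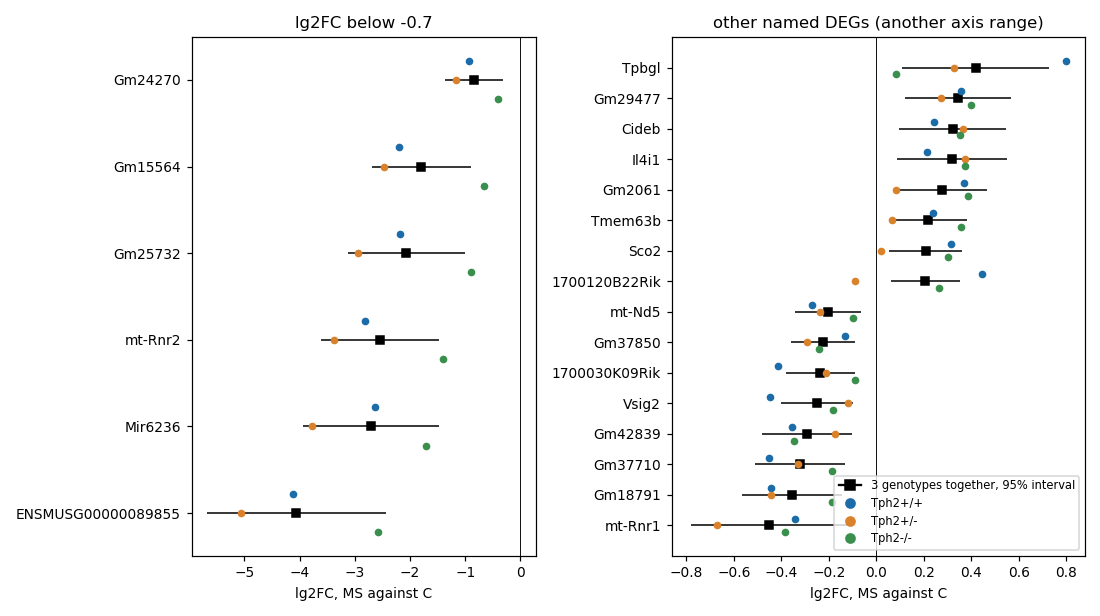
The lg2FC of MS against C for the 22 named DEGs, with all mice as black squares with 95% intervals and single genotypes as colored points; the left panel holds the 6 genes below -0.7 and the right panel the other 16 on another axis range. The intervals of all genes exclude 0, and the Tph2-/- values of the 6 genes on the left lie nearest to 0.

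Genes of the mitochondrial genome encode subunits of the respiratory chain and the RNAs for their translation, and all 9 of 15 listed genes that were tested had a negative lg2FC, of which 3 were DEGs, while 52.3% of all genes tested had a negative lg2FC and 0.797% were DEGs. mt-Rnr1, the 12S ribosomal RNA, had a median of 29.99 CPM in C (15.7 to 138) and of 26.1 CPM in MS (10.9 to 59.9), with a lg2FC of -0.45 ± 0.16 (95% interval -0.78 to -0.12). mt-Nd5, a subunit of complex I that overlaps mt-Nd6 on the other strand for 14 bases, had a median of 1337 CPM in C (971 to 2096) and of 1192 CPM in MS (812 to 1565). Its lg2FC of -0.20 ± 0.07 became -0.14 ± 0.06 without the 4 libraries rich in Gm42418, which is below the DEG limits. Values that were no DEGs were -0.29 ± 0.12 for mt-Nd6, -0.18 ± 0.08 for mt-Nd2, -0.06 ± 0.05 for mt-Cytb and -0.01 ± 0.07 for mt-Co1, which overlaps mt-Ts1 for 3 bases. The median over the 9 genes was -0.18 against -0.01 over all genes, and without the 4 libraries it was -0.14, with 1 DEG, mt-Rnr1. Split by animal number as described below, mt-Rnr1 was no DEG against the 17 earlier controls (-0.05 ± 0.13), and mt-Nd5 was none against the 7 later ones (-0.02 ± 0.09).

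The other gene lists gave no DEG in all mice. Few of their members had enough counts, namely 2 of 24 genes of the stress hormone list, 3 of 23 serotonin genes, 1 of 24 neuropeptide precursors, 2 of 20 immediate early genes, 4 of 23 neurotrophin and plasticity genes, 3 of 20 DNA methylation genes and 12 of 36 glutamate and GABA receptor genes. With 49 tested genes lying opposite to a list gene, 93 genes were in or opposite to the lists and 3 of them, or 3.23%, were DEGs (0.797% of all genes tested), all of them mitochondrial. In the stress hormone list, the mineralocorticoid receptor Nr3c2 (opposite to Gm10649) had a lg2FC of 0.12 (95% interval -0.14 to 0.37) and the chaperone Hsp90aa1 of -0.28 (-0.64 to 0.08). In the serotonin list, the vesicular transporter Slc18a2 (opposite to Gm29261) had -0.04 (-0.24 to 0.15), and the receptors Htr1b (opposite to D430036J16Rik) and Htr2b (opposite to Psmd1) had 0.02 (-0.15 to 0.19) and -0.06 (-0.16 to 0.05). Junb, an immediate early gene opposite to Prdx2, had 0.05 (-0.03 to 0.14).

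Among the 12 receptor genes 11 had a lg2FC below 0, with a median of -0.13, while 52.3% of all genes had one below 0. Without the 4 libraries rich in Gm42418 these values were 11 of 12, -0.12 and 47.4%. Low values were -0.31 ± 0.17 for Gabra2 and -0.27 ± 0.13 for Gabra4 (opposite to Gabrb1), which encode subunits of the GABA-A receptor and had means of 12.7 and 10.8 counts per mouse. Ntrk3, the receptor of neurotrophin 3, had a lg2FC of 0.23 ± 0.10 and the synaptic adhesion gene Nlgn1 (opposite to A830092H15Rik) of 0.17 ± 0.07. None of these values passed the limits of a DEG.

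No marker list of another cell type or neighboring region held a DEG in all mice. The tested markers of oligodendrocytes (3 of 20) had a median lg2FC of -0.11, those of astrocytes (2 of 10) of -0.10 and those of microglia (3 of 10) of -0.02. Each of the lists for choroid plexus, hypothalamus, striatum, glutamatergic neurons and GABAergic neurons had 1 tested gene, with values of -0.11, -0.07, 0.04, -0.10 and 0.02. Among the genes opposite to markers were Parpbp, whose partner is the hypothalamic peptide gene Pmch, and Gigyf2, whose partner is the choroid plexus gene Kcnj13. Parpbp ranged from 0 to 974 CPM in C and from 1.53 to 85.9 CPM in MS (lg2FC -1.47 ± 0.59; 95% interval -2.64 to -0.29), although its median was higher in MS (8.38 CPM) than in C (5.35 CPM). Without the 4 libraries rich in Gm42418 it passed the DEG limits, with a lg2FC of -1.60 ± 0.59. These values rest on replicate 7 of Tph2-/- C, the library with 974 CPM, in a group with a median of 9.85 CPM. Without that library the lg2FC of Parpbp was 0.46 ± 0.39, and without the 4 rich libraries in addition it was 0.38 ± 0.40. Gigyf2 ranged from 15.4 to 1110 CPM in C (median 187.9) and from 27.8 to 892 CPM in MS (median 101.9), with a lower median after MS in each genotype and a lg2FC of -0.37 (95% interval -1.06 to 0.32). Its lg2FC was -1.16 in Tph2+/+, -0.06 in Tph2+/- and -0.05 in Tph2-/- mice. Gm16548, opposite to the choroid plexus marker F5, had -0.32 (95% interval -1.08 to 0.43) over all mice and -1.01, -0.20 and -0.07 in the same genotypes. Whether tissue from neighboring regions differed between the rearing groups was not tested, and in bulk tissue fewer cells of a type and less RNA per cell cannot be told apart.

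Labels give each mouse an animal number. The numbers of 17 controls lay below and those of 7 controls above the numbers of all 24 MS mice, so that no range of numbers held both MS and C mice and a step between these blocks cannot be told apart from rearing. The blocks are called earlier and later by animal number alone, since the labels used here give no date. The 7 later controls were 2 Tph2+/+, 2 Tph2+/- and 3 Tph2-/- mice. MS against the 17 earlier controls gave 42 DEGs (0.744% of the genes tested), of which 22 were among the 45. A nominal p below 0.05 was reached by 4.59% of the genes (edgeR). MS against the 7 later controls gave 137 DEGs (2.43%), of which 6 were among the 45, and 10.9% of the genes had a nominal p below 0.05 (edgeR). Both comparisons use the same MS mice and fewer mice than the full one. Of the 45 DEGs, 45 kept their sign against the earlier and 39 against the later controls, 0 passed the DEG limits against both, and 13 had a nominal p below 0.05 against both (edgeR). The DEGs were called from these same mice, so these counts are a description and no test.

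The genes that reached this in both comparisons included mt-Rnr2, 1700030K09Rik, Cideb and Gm2061. The lg2FC of mt-Rnr2 was -2.96 ± 0.58 against the earlier controls, which hold all 3 C libraries rich in Gm42418, and -0.66 ± 0.31 against the later ones. 1700030K09Rik had a lg2FC of -0.24 ± 0.08 against the earlier controls and of -0.22 ± 0.10 against the later ones. Gm2061 had 0.24 ± 0.11 and 0.35 ± 0.14 in the same order. Others differed more against a single block. mt-Rnr1 had a lg2FC of -0.05 ± 0.13 against the earlier controls and of -1.09 ± 0.19 against the later ones. Ptms had -0.34 ± 0.19 and -1.02 ± 0.25. Vsig2 went the other way, with -0.33 ± 0.08 and -0.05 ± 0.11.

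Whether the rearing effect differed between genotypes was tested with the interaction over the 6 groups. A nominal p below 0.01 was reached by 117 genes, or 2.07%, but 0 genes had an adjusted p below 0.05 (edgeR; 358 genes, or 6.34%, had a nominal p below 0.05). The 117 genes became 49 without the 7 later controls and 44 without these and the 4 libraries rich in Gm42418. The smallest p was that of Dnaaf2, a factor for the assembly of dynein arms that lies opposite to 9330151L19Rik on chromosome 12. Dnaaf2 had group medians of 118 and 165 CPM in C and MS of Tph2+/+ mice, 160.5 and 129.4 in Tph2+/- mice and 142 and 154 in Tph2-/- mice. Its lg2FC was 0.52 ± 0.14 in Tph2+/+, -0.38 ± 0.14 in Tph2+/- and 0.04 ± 0.14 in Tph2-/- mice (n = 48; interaction p = 0.000133, adjusted p = 0.283, edgeR), and over all mice 0.05.

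Appbp2os, an antisense transcript opposite to Appbp2 on chromosome 11, had the next p. Its group medians were 71.4 and 114 CPM in C and MS of Tph2+/+ mice, 97.6 and 73.2 in Tph2+/- mice and 76.3 and 72.5 in Tph2-/- mice. The lg2FC was 0.71 ± 0.18, -0.42 ± 0.17 and 0.02 ± 0.18 in Tph2+/+, Tph2+/- and Tph2-/- mice (n = 48; interaction p = 0.000167). In both genes the C mice of Tph2+/- were higher than those of Tph2+/+, and MS mice were in the reverse order.

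Within single genotypes, 2.8% of the genes tested were DEGs after MS in Tph2+/+ mice, namely 123 higher (2.18%) and 35 lower (0.62%), in contrast to 8 higher of 45 for all mice together. In Tph2+/- mice 41 genes (0.727%) and in Tph2-/- mice 39 genes (0.691%) were DEGs. In each genotype 0 genes had an adjusted p below 0.05 (edgeR), while a nominal p below 0.05 was reached by 7.96%, 3.9% and 4.73% of the genes in Tph2+/+, Tph2+/- and Tph2-/- mice. The 3 contrasts share no mouse. Tph2+/+ and Tph2+/- shared 6 DEGs (3.80% and 14.6% of each), 3 of them (ENSMUSG00000089855, mt-Rnr2 and Gm15564) with the same sign, Tph2+/+ and Tph2-/- shared 1, and Tph2+/- and Tph2-/- shared 1. Without the 4 libraries rich in Gm42418, Tph2+/+ and Tph2+/- shared 8 DEGs, 0 of them with the same sign.

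Across the 5643 genes, the lg2FC in Tph2+/+ and Tph2-/- mice had a Spearman rho of 0.23, those in Tph2+/+ and Tph2+/- mice of -0.16 and those in Tph2+/- and Tph2-/- mice of -0.07. These are descriptions across genes, which share libraries and are not independent. For the 3588 genes with exons opposite to another gene rho was 0.29, -0.19 and -0.10 in the same order, and for the 2055 genes without it was 0.06, -0.06 and 0.06. Without the 4 libraries rich in Gm42418 the values over all genes were 0.21, -0.18 and -0.02. The median lg2FC over all mice was 0.01 for genes with and -0.03 for genes without opposite exons, and 0.01 and -0.01 without the 4 libraries.

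**Figure D5:**
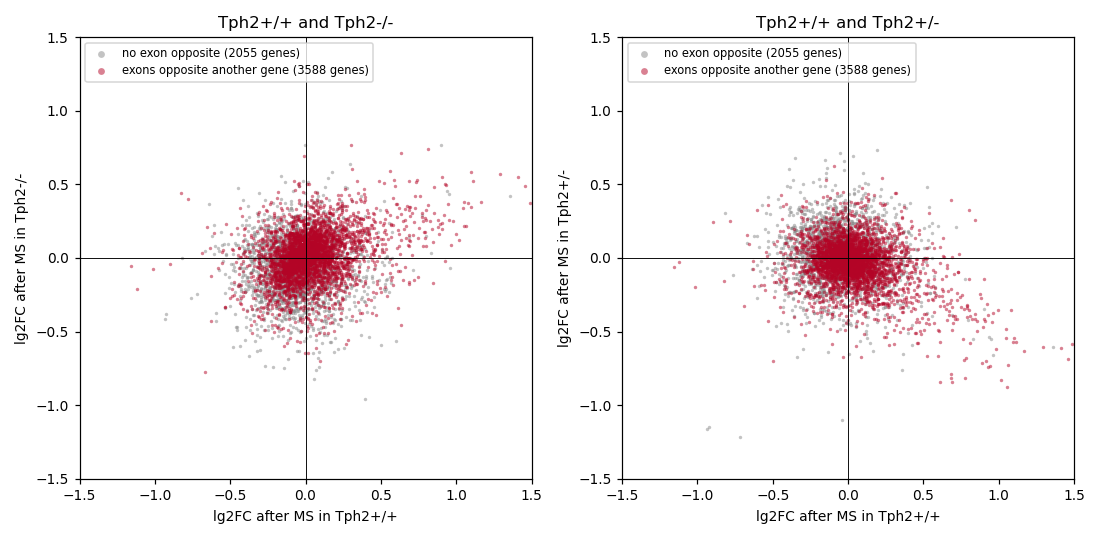
Each point is a gene, placed by its lg2FC after MS in Tph2+/+ mice (x axis) and in Tph2-/- mice (left) or Tph2+/- mice (right), in red for genes whose exons overlap another gene on the opposite strand and in grey for the rest; 13 genes in each panel lie outside the axes. The cloud of red genes extends to higher lg2FC in Tph2+/+ mice, with a Spearman rho of 0.29 on the left and -0.19 on the right for these genes.

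The calls depended on which genotypes entered the average. Without Tph2+/- mice 173 genes (3.07% of those tested) were DEGs, with 21 of the 45 among them, and 10.2% had a nominal p below 0.05 (edgeR). After MS 137 of the 173 were higher. Of these 137, 127 (92.7%) had exons opposite to another gene, against 63.6% of all genes tested. In Tph2+/- mice 124 of the 137 had a negative lg2FC (90.5%, against 52.6% of all genes). Of all tested genes with opposite exons, 42.9% had a positive lg2FC in Tph2+/- mice. The median lg2FC of the 137 genes was 0.46 without Tph2+/- mice, -0.25 in Tph2+/- mice and 0.20 in all mice. They were picked as higher in the fit without Tph2+/- mice, so the value of 0.46 follows from that choice. The genes with the smallest p included Gm45444, opposite to the cytohesin gene Cyth2, with 0.90 in Tph2+/+, -0.41 in Tph2+/- and 0.55 in Tph2-/- mice (interaction with n = 48, adjusted p = 0.283, edgeR). Cnbd2, opposite to Gm14252 and Scand1, had 1.41, -0.61 and 0.55, with the same adjusted p. These genes were chosen after their values were seen. Leaving out Tph2+/+ mice gave 33 DEGs and leaving out Tph2-/- mice 31, with 13 of the 45 DEGs kept in each case.

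In the 11 alternatives of the first 14 that kept every genotype, the DEG limits were passed each time by 6 of the 45 DEGs, namely the lower genes Gm18791, Gm37710, Vsig2, Krr1 and Gm16210 and the higher gene Gm29477. In the fits added after seeing the data, 6 of these 6 passed without the 4 rich libraries with robust edgeR, 4 passed without the rich libraries and the 7 later controls, and 0 passed without the 17 earlier controls.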

How the data were processed

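Total RNA from the amygdala was made into stranded libraries and read in pairs. Per the labels the reads were mapped to GRCm38.p5, and the submitters' processing notes name STAR, HTSeq and DESeq2 without versions. The authors deposited raw counts of read pairs per Ensembl gene for the 48 mice, without normalization, and 5 special entries for uncounted pairs. The share of pairs on no gene had a median of 97.5%, and these entries were left out of library sizes. Groups were taken from the genotype and rearing in the labels. Genes were placed with GENCODE M21 (GRCm38), which holds 48058 of the 48440 genes.

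Genes with a mean of at least 10 counts were tested after TMM scaling with edgeR (version 4.0.16, run in R 4.3.3; genotype plus rearing, quasi-likelihood F test, Benjamini-Hochberg adjustment over 5643 genes). The DEG limits are those of the study, which used DESeq2, and DESeq2 1.42.0 was an alternative. The interaction and the values of single genotypes came from a fit with 6 group coefficients. The fit was tested on simulated data. The 24 named genes began with the 12 lower DEGs with the smallest p and all 8 higher DEGs. To these came DEGs in or opposite to the gene lists and the 2 genes with the smallest interaction p. Tph2 was described beside them. Some values of single genes are not reported here. The comparison, the lists and the alternatives were chosen with earlier results of these data known. In all, 14 alternatives were listed at first, and 3 were added after seeing the data, with a further 2 for Parpbp alone. Libraries of a group were never identical, and the lowest chi-square per degree of freedom between a pair was 1.53. The tables and figures were made with Python 3.11.15, NumPy 2.4.6, SciPy 1.17.1, pandas 2.3.3 and matplotlib 3.10.9.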

Additional observations from a re-analysis of the deposited data

Results flagged for a closer look

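In 32 of 144 sets of 8 mice from a group, for the 24 named genes, the highest mouse stood far from the others (gap to the next mouse over the group's range, by Dixon's test). Chance gives about 1 in 20, and a gene chosen for a difference between groups is not a random one. Of these, 20 came from the 5 lower DEGs with the smallest p, and in each of them the outlying mouse was one of the 4 libraries rich in Gm42418. The outlying mice of ENSMUSG00000089855 had 10008 CPM (C of Tph2+/+), 394 CPM (MS of Tph2+/+), 5123 CPM (C of Tph2+/-) and 858 CPM (C of Tph2-/-). In the same order, mt-Rnr2 had 54352, 3671, 53454 and 8572 CPM, Mir6236 had 56740, 6102, 46343 and 8345 CPM, Gm15564 had 20280, 1677, 15235 and 2368 CPM, and Gm25732 had 5291, 663, 4547 and 637 CPM. Gm24270 stood out with 6502 CPM in Tph2+/+ C, 5893 in Tph2+/- C and 1467 in Tph2-/- C.

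The remaining outlying mice were in Tph2+/+ C for Gm18791 (55.8 CPM), Gm37710 (75.5 CPM) and mt-Rnr1 (138 CPM), in Tph2+/- MS for 1700030K09Rik (77.7 CPM), Gm42839 (62.1 CPM), Dnaaf2 (191 CPM) and Appbp2os (113 CPM), in Tph2-/- C for Gm29477 (36.5 CPM) and in Tph2+/+ MS for Tpbgl (83.6 CPM).

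The effect of MS differed between genotypes, by the interaction test of edgeR without adjustment (n = 48), for Dnaaf2 (p = 0.000133), Appbp2os (p = 0.000167) and 1700120B22Rik (p = 0.00641), and none of these passed adjustment over all genes.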

How the results depend on the processing

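The 45 DEGs (0.797%) became 385 (1.19%) with all genes that had at least 1 count (32233 genes) and 173 (3.07%) without Tph2+/- mice. They became 25 (0.443%) without both the 4 rich libraries and the 7 later controls and 137 (2.43%) without the 17 earlier controls. Under the other 13 alternatives the number lay between 30 and 52. The 2 genes with an adjusted p below 0.05 became 16 with all genes, 5 without the 7 later controls, 1 without Tph2+/- mice and 1 without the 17 earlier controls. They became 0 with DESeq2 (4.66% of genes with a nominal p below 0.05), with robust edgeR, with the replicate block, with the share of pairs on no gene as a covariate, without Tph2+/+ mice, without Tph2-/- mice, without the 4 rich libraries, and in both added fits without them. DESeq2 gave 37 DEGs. The lower DEGs made up 82.2% of the calls with TMM, 78.0% with DESeq2's size factors, 52.7% with all genes and between 65.7% and 86.7% in the other fits, except without Tph2+/- mice (20.8%).

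The 117 genes at an interaction p below 0.01 became 526 with all genes (0.459% of the genes at an adjusted p below 0.05), 49 without the 7 later controls and 44 without these and the 4 rich libraries, and without the 17 earlier controls 0.0177% of the genes passed adjustment.

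Of 308 values of the named DEGs under the first 14 alternatives, 220 kept their direction and their call, 84 kept their direction without passing the limits and 4 turned. With the share of pairs on no gene as a covariate the lg2FC was 0.049 for Mir6236, 0.025 for Gm15564 and 0.087 for Gm25732. Gm15564 had 0.031 without the 4 rich libraries, also with robust edgeR, and 0.041 without the 7 later controls in addition. Without the 17 earlier controls the lg2FC was 0.47 for ENSMUSG00000089855, 0.36 for Mir6236, 0.076 for Gm15564, 0.60 for Gm25732 and 0.17 for Gm24270. Parpbp turned from -1.47 to 0.46 without replicate 7 of Tph2-/- C, and to 0.38 without this and the 4 rich libraries. Apart from fits with fewer mice or more genes, the cause was not tested.

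Replicate numbers did not pair the mice. Over 24 pairs of C and MS mice with a number in common, the deviations from the group means correlated between -0.26 and 0.23 (median -0.03), with 3 over 0.1 and 1 of 24 mice closest to its own number. The replicate block gave 30 DEGs, 29 of them among the 45, and 0 genes after adjustment.

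Depth limits these results, since most levels rest on few counts per mouse. All values turn on counts without a stated strand setting, littermates were treated as independent, and rearing cannot be told apart from a step between blocks of animal numbers.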
